A study of Mus musculus with 6 samples.

Results

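The nuclear-encoded subunits of the respiratory chain and of ATP synthase were followed through RNA sequencing of lumbar dorsal root ganglia of mice, where the cell bodies of sensory neurons lie wrapped in glia. Members were the protein-coding genes whose GRCm38 symbol is that of a complex I subunit (Nduf with a, b, c, s or v and a digit), a complex II subunit (Sdha to Sdhd), a complex III subunit (Uqcr genes and Cyc1), a complex IV subunit (Cox4 to Cox8 genes) or a complex V subunit (Atp5 genes). The rule found 85 of the 36793 gene identifiers, 37 in complex I, 4 in complex II, 9 in complex III, 18 in complex IV and 17 in complex V. Ndufa4, named for NADH dehydrogenase but found in complex IV, was counted under complex I by its symbol. The groups were 3 knockout (KO) mice, numbered 4 to 6 and given the genotype NMDA-R Knockout, and 3 wild-type (WT) mice, numbered 1 to 3 and given the genotype Wildtype. The extraction notes call the ganglia GluN1- and GluN1+, from levels L3-L4, and the series title says that the gene for GluN1, an NMDA receptor subunit, was deleted in Schwann cells. The sources used here do not give the Cre driver, whether WT mice carried a floxed allele or a Cre, or the strain, sex, age, litter and batch.

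The respiratory chain lies in the inner mitochondrial membrane. Complex I takes electrons from NADH and complex II from succinate, complex III passes them from ubiquinol to cytochrome c, and complex IV hands them to oxygen, while complex V uses the proton gradient to make ATP. Most subunits are encoded in the nucleus and imported, a few are encoded by mitochondrial DNA, and expression of the nuclear genes is coordinated by NRF1, GABP, YY1 and the PGC-1 coactivators. Sensory neurons are known for a high demand for ATP along their long axons, and myelinating glia rely on oxidative phosphorylation as they develop.

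Total expected counts were 28536700 to 36249163 in KO libraries and 28526704 to 32719517 in WT libraries. KO libraries 5 and 6 differed by no more than sampling noise, with an average chi-square of 1.15 and 0 of 10258 genes differing at a false discovery rate of 0.05, against 13.2 to 104.0 and 3382 to 7317 genes in the other 14 pairs. They were summed and counted as 1 sample, so that n = 2 for KO and n = 3 for WT. Grin1, the targeted gene (chromosome 2, 25291181 to 25319187, GRCm38), was at 46.2, 65.8 and 69.7 TPM in KO libraries 4, 5 and 6, against 38.8, 63.7 and 42.6 TPM in WT libraries 1, 2 and 3. TPM counts transcripts per 1000000, a level corrected for gene length and depth. On the log2 scale Grin1 was 0.21 higher in KO than in WT (standard error 0.26, adjusted p = 0.812 by edgeR), so this gene did not separate the groups and gives no check of the labels. The labels give Schwann cells as the cell type, but the 13 neuron markers summed to 21010 to 26460 TPM in KO libraries and 17670 to 23260 TPM in WT libraries, and the 12 Schwann cell markers to 7179 to 7613 TPM in KO libraries and 5571 to 6541 TPM in WT libraries. RNA of neurons was thus abundant in the libraries. In such bulk samples, fewer cells of a type and less RNA per cell cannot be told apart.

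The respiratory chain genes were among the well measured genes of the ganglion. Of the 85 members, 70 averaged over 100 TPM and 10 averaged under 25 TPM. Together they summed to 28085.5, 26434.3 and 26446.9 TPM in KO libraries 4, 5 and 6, against 31634.8, 29481.1 and 29030.6 TPM in WT libraries 1, 2 and 3. All KO sums lay below all WT sums on this scale. TPM has a fixed total, and the 6 erythroid markers took 59740, 16420 and 16460 TPM of it in KO libraries 4, 5 and 6. They took 12750 to 24480 TPM in WT libraries, and their part in the order of the sums was not tested. As a share of all expected counts, the members took 1.02, 0.892 and 0.893% in KO libraries, against 1.12, 1.02 and 1.01% in WT libraries. On that scale KO library 4 lay within the WT range.

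The most abundant member was Atp5b, the catalytic beta subunit of ATP synthase, with 1529, 1545 and 1560 TPM in KO libraries, against 1446, 1663 and 1524 TPM in WT libraries. Ndufa4 followed with 1222, 1128 and 1102 TPM in KO libraries, against 1543, 1284 and 1319 TPM in WT libraries. Cox4i1, the regulatory subunit 4 of cytochrome c oxidase, was at 1040, 944 and 959 TPM in KO libraries, against 1084, 1084 and 981 TPM in WT libraries. Of these genes, Atp5b and Cox4i1 overlapped between the groups in TPM and Ndufa4 did not. Among tested members the median level was 223.5 TPM in complex I, 217.6 TPM in complex II, 293.2 TPM in complex III, 517.4 TPM in complex IV and 475.6 TPM in complex V, each averaged over the 6 libraries. Genes of complexes IV and V thus stood at higher levels than those of complexes I and II.

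**Figure D1:**
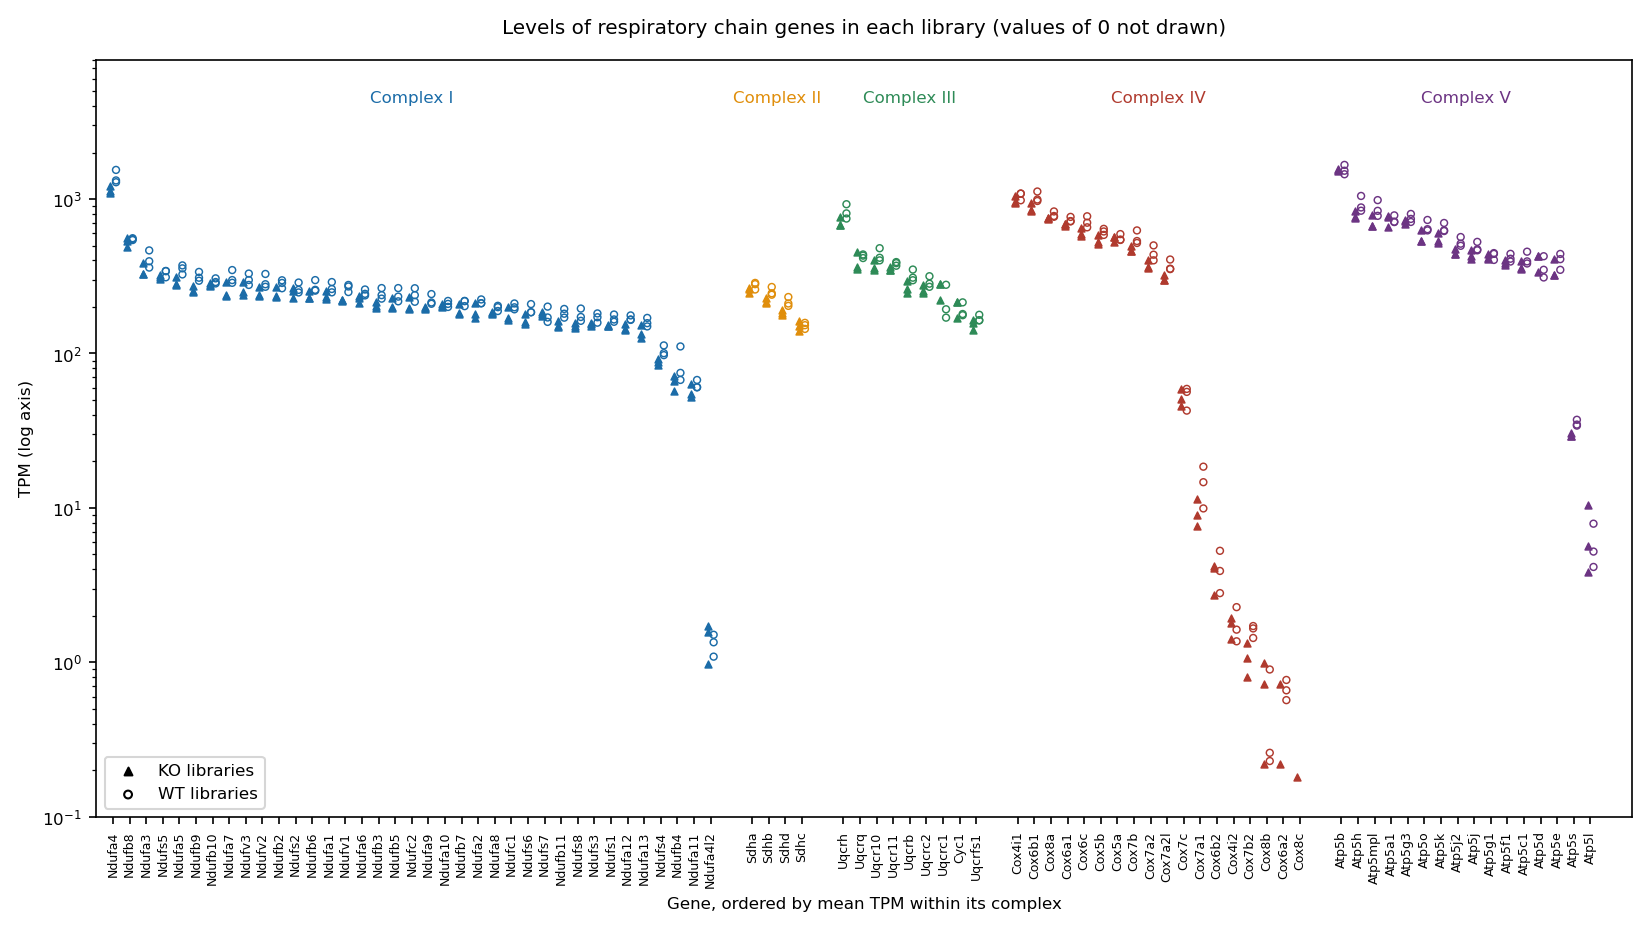
TPM of each respiratory chain gene in every library, on a log axis, with genes ordered by mean level within complexes I to V, filled triangles for the 3 KO libraries and open circles for the 3 WT libraries. Most genes of a complex lie within a narrow band, from which Ndufa4l2, the tissue-restricted isoforms of complex IV and Atp5l fall away, and Atp5g2 is not drawn because it was listed at 0 in every library.

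Several subunits of complex IV exist as a widespread and a tissue-restricted isoform, and the ganglia held almost solely the widespread ones. Cox4i1 made up at least 99.79% of the TPM of its pair with Cox4i2, an isoform known from lung and from oxygen-sensing cells, in KO and in WT libraries. Cox6a1 made up at least 99.89% of its pair with Cox6a2, the heart and muscle isoform. Cox6b1 made up 99.5 to 99.7% in KO libraries and in WT libraries of its pair with Cox6b2, the testis isoform. The heart and muscle isoform Cox7a1 was the most frequent of the restricted ones, with 1.14 to 1.55% of the Cox7a family in KO libraries and 1.302 to 2.00% in WT libraries. Its widespread partner Cox7a2 held 54.0 to 54.5% in KO libraries and 52.6 to 54.2% in WT libraries, and Cox7a2l, which takes part in joining complexes III and IV into supercomplexes, held most of the rest. The liver-type Cox8a made up at least 99.8% of its family. Cox8b, the heart and muscle isoform, had at most 4 expected counts in any library, and Cox8c, known from testis, at most 1. Ndufa4l2, a paralogue of Ndufa4 known as a hypoxia target, was at 0.97, 1.57 and 1.72 TPM in KO libraries, against 1.09, 1.51 and 1.35 TPM in WT libraries. At this level a difference between the groups was not detectable.

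Member promoters held the motif cores of the factors named above more often than promoters at large, with no test of the difference. Of the 85 members, 68 had a promoter in the RefSeq table (GRCm38.p6), in 73 windows that run from 250 bases before to 50 bases after the start. The motif core of NRF1 (GCATGCG) was in 15.1% of member windows, against 4.44% of 21263 windows of protein-coding genes, counting both strands. The core bound by ETS factors such as GABP (CCGGAAG) was in 21.9% of member windows, against 11.6%, and that of YY1 (AAGATGG) in 15.1%, against 6.24%. The CCAAT box, bound by NF-Y, was in 42.5%, against 38.2%. At least 1 of the NRF1, ETS and YY1 cores was in 42.5% of member windows, against 20.3% of windows of protein-coding genes. It was in 29 of the 67 windows of members of at least 25 TPM, or 43.3%, and in 2 of the 6 windows of members under 25 TPM. Those 2 are Atp5l and Atp5g2, whose low counts are uncertain because near-identical copies share their reads. A match is a description of the letters only, and the ETS and YY1 cores can overlap by the letters AAG, so that a stretch can count for both. Median GC content was 57.3% in member windows, against 56.3%. The windows below show 100 bases before the start, 5′ to 3′ on the gene's strand, with the searched cores in capitals on either strand. Each begins so that at most 30 bases of the GENCODE gene are included. Sdhb carries an NRF1 core, Uqcrh, Cox6a1 and Cox6b1 each carry a reversed ETS core (CTTCCGG) close to the start, and the restricted isoforms Cox6b2 and Cox7a1 are set beside Cox6b1 and Cox7a2, their widespread partners.
Sdhb, chr4:140961133-140961232, plus strand: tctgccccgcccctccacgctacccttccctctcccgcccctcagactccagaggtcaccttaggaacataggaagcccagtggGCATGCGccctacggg
Uqcrh, chr4:116075071-116075170, minus strand: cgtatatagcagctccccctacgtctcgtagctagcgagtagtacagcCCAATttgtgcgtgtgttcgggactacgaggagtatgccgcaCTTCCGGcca
Cox6a1, chr5:115348959-115349058, minus strand: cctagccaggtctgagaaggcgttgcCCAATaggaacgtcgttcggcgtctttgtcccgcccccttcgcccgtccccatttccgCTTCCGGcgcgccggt
Cox6b1, chr7:30626122-30626221, minus strand: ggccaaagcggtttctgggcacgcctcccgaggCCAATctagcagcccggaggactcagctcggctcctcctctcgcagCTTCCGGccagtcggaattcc
Cox6b2, chr7:4753095-4753194, minus strand: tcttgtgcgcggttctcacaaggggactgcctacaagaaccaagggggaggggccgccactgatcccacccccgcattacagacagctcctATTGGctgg
Cox7a2, chr9:79759854-79759953, minus strand: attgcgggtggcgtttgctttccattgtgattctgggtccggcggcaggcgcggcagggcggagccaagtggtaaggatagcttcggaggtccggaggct
Cox7a1, chr7:30184071-30184170, plus strand: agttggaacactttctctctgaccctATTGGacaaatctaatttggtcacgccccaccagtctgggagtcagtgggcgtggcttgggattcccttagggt
The windows of Cox6b2 and Cox7a1 hold a reversed CCAAT box (ATTGG) and no NRF1, ETS or YY1 core. The Cox7a2 window, from an abundant gene, holds none of the 4 cores in these bases either, as is the case for the NRF1, ETS and YY1 cores in most windows of abundant members.

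Members whose reads could be shared with processed pseudogenes needed separate care, because RSEM divides reads that match several transcripts. Expected counts were whole numbers within 1e-09 in all 6 libraries for 50 of the 85 members, and 5 members had a near-identical copy elsewhere in the table. The clearest case was Cox7c, a small subunit of complex IV on chromosome 13 (86044816 to 86046904), whose whole coding sequence of 192 bases is repeated without a difference in the intronless copy Gm12338 at chr11:75599763-75599954 (minus strand, GRCm38, GENCODE vM21).
Cox7c coding sequence and Gm12338: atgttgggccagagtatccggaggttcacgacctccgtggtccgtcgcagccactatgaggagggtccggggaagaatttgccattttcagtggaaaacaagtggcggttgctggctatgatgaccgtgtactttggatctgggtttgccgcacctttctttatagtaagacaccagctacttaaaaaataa
Cox7c was assigned 217, 275 and 211 expected counts in KO libraries, against 291, 199 and 236 in WT libraries, while Gm12338 was assigned 3279, 3346 and 3071 in KO libraries, against 4089, 3419 and 3220 in WT libraries. Cox7c thus received 5.51 to 7.602% of the counts of the pair. How those counts divide between gene and copy cannot be told from the table.

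Other members shared this feature. Atp5l, subunit g of the ATP synthase membrane part, was assigned 63.4, 39.0 and 24.4 expected counts in KO libraries, against 53.5, 34.0 and 24.3 in WT libraries. Its copy Gm10221 on chromosome 5 was assigned 3611 to 4089 in KO libraries and 4020 to 5423 in WT libraries. Atp5g2, 1 of the genes for subunit c of the ATP synthase ring, was listed at 0 in all 6 libraries, beside copies on chromosomes 7 and 17 whose whole sequence matches it. Ndufb4, an accessory subunit of complex I, took 18.4 to 23.3% of the counts it shares with Ndufb4c on chromosome 15. Atp5g1, the other subunit c gene with a copy, kept 86.3 to 91.2%. With the counts of each gene and its copies added, log2 fold changes were -0.12 for Cox7c, -0.18 for Atp5l, -0.24 for Ndufb4, -0.09 for Atp5g2 and -0.03 for Atp5g1, with adjusted p from 0.677 to 0.921 (edgeR quasi-likelihood test). For Atp5l this reversed the sign, from a log2 fold change of 0.37 for the gene alone. The levels of Cox7c, Atp5l, Atp5g2 and Ndufb4 above are therefore uncertain.

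**Figure D2:**
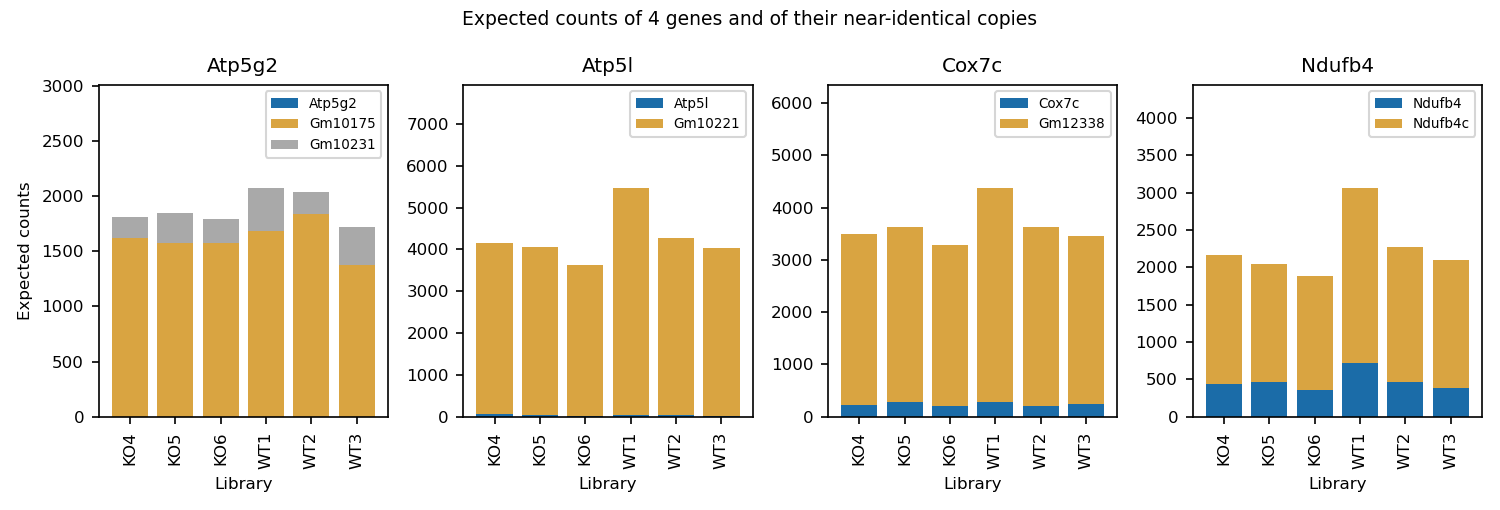
Expected counts per library, KO 4 to 6 and then WT 1 to 3, stacked for Atp5g2, Atp5l, Cox7c and Ndufb4 (blue) and for their near-identical copies (orange and grey). In every library the copies hold most of the stack, and Atp5g2 has no blue part.

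No respiratory chain gene differed between KO and WT ganglia by the test, but their log2 fold changes leaned to one side. Of 81 members that passed the filter on low counts, 0 passed at an adjusted p under 0.05 (edgeR quasi-likelihood test), where 0.0952% of the 16810 tested genes did. The smallest adjusted p was 0.574 for Ndufv1. At an unadjusted p under 0.05 the count was again 0 of 81, where 9.16% of all tested genes lay, 4.00% lower and 5.16% higher in KO. DESeq2 also called 0 members, where it called 1.52% of all genes, and 0 at an unadjusted p under 0.05, where 8.84% of all genes lay. With libraries 5 and 6 as separate samples 0 members passed, where 0.871% of all genes did, and 16 of 81 were lower at an unadjusted p under 0.05, as were 9.34% of all genes. The log2 fold change, KO over WT, was negative for 74 of 81 members, where 49.8% of all tested genes were negative, and its median was -0.15, against 0.00 over all tested genes. The median standard error of these log2 fold changes was 0.122, against 0.17 over all tested genes. Both KO samples lay below all 3 WT samples in counts per 1000000 (CPM) for 22 of 81 members, or 27.2%, against 15.5% of all tested genes. Both lay above for 0 of 81, against 11.8%. The 4 untested members were Cox6a2, Cox8b, Cox8c and Atp5g2. Library 4 and the summed libraries 5 and 6 are the only KO samples, so the direction rests on 2 values.

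**Figure D3:**
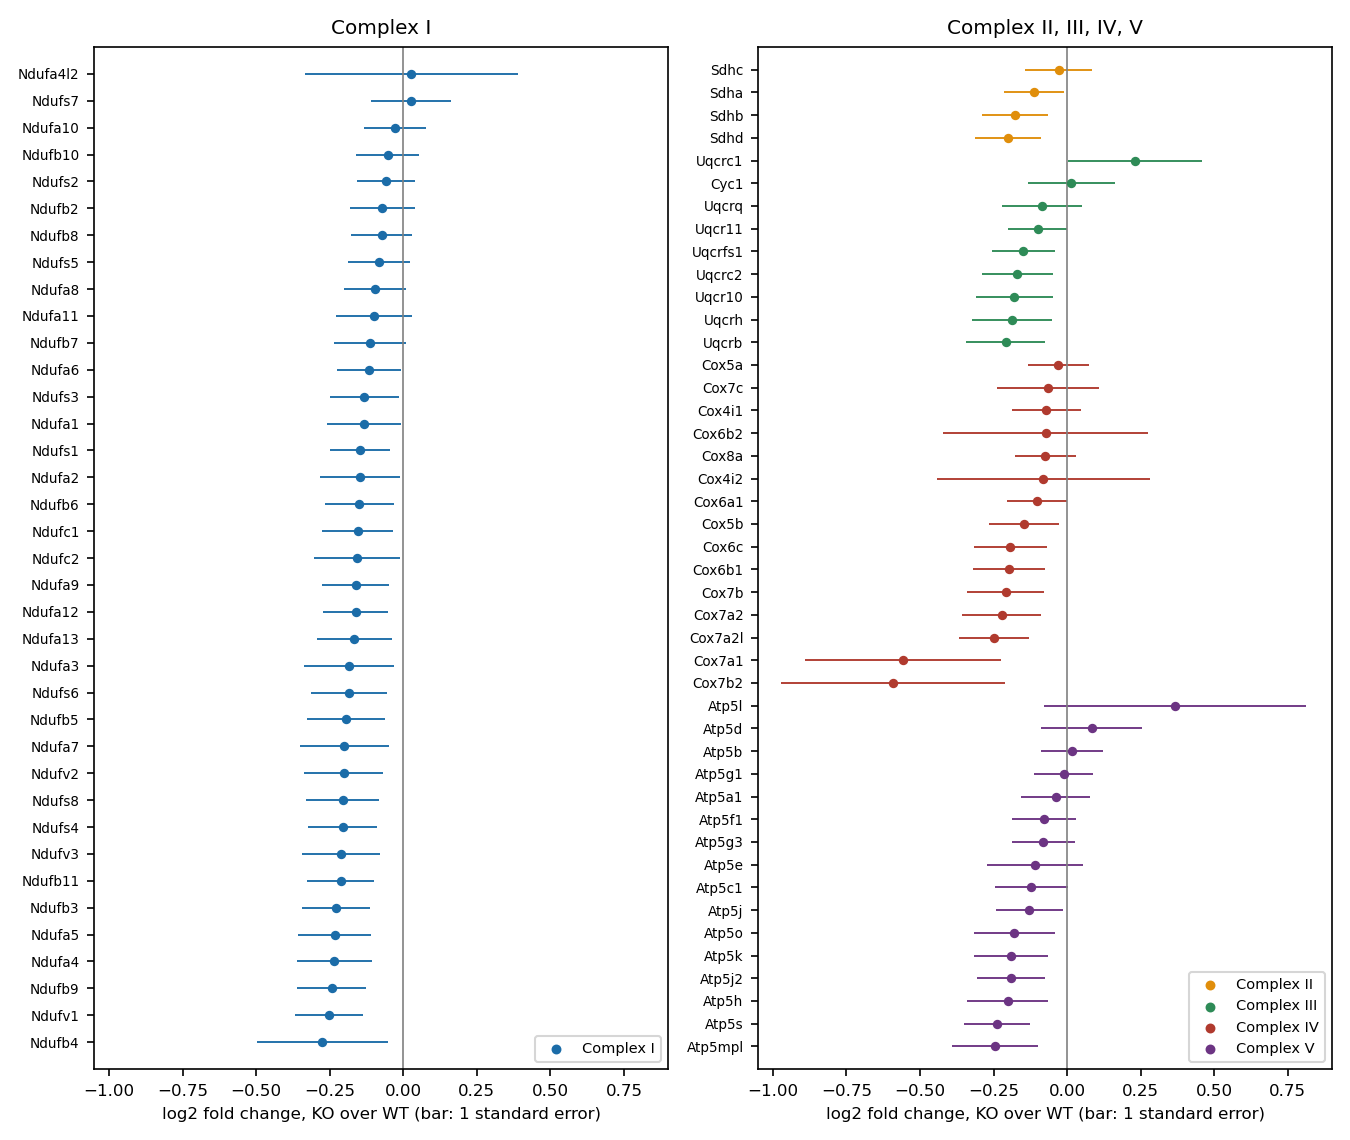
Log2 fold change, KO over WT, of the 81 tested respiratory chain genes with 1 standard error on each side, complex I on the left and complexes II to V on the right. Points lie left of 0 for 74 genes, and the genes at low counts, such as Cox7b2, Cox7a1 and Atp5l, have the widest bars.

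In complex I, which takes electrons from NADH, 35 of 37 genes had a negative log2 fold change, with a median of -0.16, and both KO samples lay below all WT samples in CPM for 10, or 27.0%, against 15.5% of all tested genes. The 7 core subunits, among them those that carry the flavin and the iron-sulphur clusters, had a median of -0.15, and the 30 others, mostly accessory subunits, had -0.16. Ndufv1, the core subunit that binds NADH, was at 223, 220 and 221 TPM in KO libraries, against 271, 278 and 250 TPM in WT libraries. Every KO value was lower than every WT value. In CPM it averaged 144.9 ± 8.66 in KO (SD, n = 2) and 172.6 ± 13.5 in WT (SD, n = 3), a log2 fold change of -0.25 with a standard error of 0.11. Ndufb4 had the lowest log2 fold change of the complex, -0.28 with a standard error of 0.22, and shares its reads with a copy. Ndufa4 stood at -0.23 and Ndufa3, an accessory subunit, at -0.19. Ndufb8, an accessory subunit often used to follow assembled complex I, was at 488, 561 and 533 TPM in KO libraries, against 557, 550 and 542 TPM in WT libraries. The groups overlapped there, with the highest value in KO library 5. The members with positive log2 fold changes were Ndufs7, a core iron-sulphur subunit, and Ndufa4l2, each at 0.03.

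Complex II, which oxidises succinate and is also an enzyme of the citric acid cycle, had negative log2 fold changes for all 4 genes. Sdhb, the iron-sulphur subunit, was at 229, 215 and 213 TPM in KO libraries, against 269, 245 and 240 TPM in WT libraries. Sdhd, a membrane anchor, was at 193, 178 and 183 TPM in KO libraries, against 232, 203 and 211 TPM in WT libraries. For both genes every KO value lay below every WT value. Sdha, the flavoprotein, was at 245, 262 and 264 TPM in KO libraries, against 286, 281 and 259 TPM in WT libraries. It overlapped in TPM and did not overlap in CPM. Both KO samples lay below all WT samples in CPM for 3 of the 4 genes, against 15.5% of all tested genes. Sdhc, the other anchor, had a log2 fold change of -0.03, against -0.11 for Sdha, -0.18 for Sdhb and -0.20 for Sdhd, with standard errors of 0.10 to 0.11.

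In complex III, which transfers electrons from ubiquinol to cytochrome c, 7 of 9 genes had a negative log2 fold change, with a median of -0.15. Both KO samples lay below all WT samples in CPM for 2 of the 9, or 22.2%, against 15.5% of all tested genes. Uqcrc1, a core protein of the matrix side, had the highest value of the complex. It was at 222, 280 and 282 TPM in KO libraries, against 171, 278 and 193 TPM in WT libraries. KO libraries 5 and 6 and WT library 2 were high and the rest low, which gave a log2 fold change of 0.23 with a standard error of 0.23. The same libraries were high for Cyc1, which encodes cytochrome c1, with 169, 216 and 216 TPM in KO libraries, against 177, 214 and 180 TPM in WT libraries. Its log2 fold change was 0.01. The small subunits lay on the other side. Uqcrh, the hinge protein that helps to dock cytochrome c, was at 766, 677 and 679 TPM in KO libraries, against 925, 747 and 807 TPM in WT libraries, a log2 fold change of -0.19. Uqcrb and Uqcr10 stood at -0.21 and -0.18. Uqcrq, another small subunit, was highest in KO library 4, at 451 TPM, and had -0.09.

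In complex IV, cytochrome c oxidase, all 15 tested genes had a negative log2 fold change, with a median of -0.15. Cox7a2l was at 323, 299 and 297 TPM in KO libraries, against 406, 352 and 354 TPM in WT libraries. Cox6b1, which joins the monomers of the enzyme on the side of the intermembrane space, was at 940, 847 and 840 TPM in KO libraries, against 1118, 971 and 992 TPM in WT libraries. Every KO library lay below every WT library for both genes, and the log2 fold changes were -0.25 and -0.20. In CPM both KO samples lay below all WT samples for 5 of the 15 genes, or 33.3%, against 15.5% of all tested genes. Cox7b and Cox7a2 stood at -0.21 and -0.22. Cox5b, Cox6a1 and Cox8a stood at -0.15, -0.10 and -0.07. Cox5a, which forms a pair with Cox4i1 in the enzyme, was nearest to 0 at -0.03, and Cox4i1 stood at -0.07.

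The most negative log2 fold changes of all tested members were those of the restricted isoforms Cox7b2 and Cox7a1, at low counts. Cox7b2, known from testis, had 7, 6 and 9 expected counts in KO libraries, against 12, 12 and 9 in WT libraries, a log2 fold change of -0.59 with a standard error of 0.38. Cox7a1 had 46, 35 and 38 expected counts in KO libraries, against 83, 43 and 57 in WT libraries, a log2 fold change of -0.56 with a standard error of 0.33. Neither value exceeds its error by enough to pass (unadjusted p = 0.167 for Cox7b2 and 0.142 for Cox7a1, edgeR quasi-likelihood test). Cox4i2 and Cox6b2 stood at -0.08 and -0.07, with standard errors of 0.36 and 0.35. Cox7a1 is known from muscle and brown fat, and markers of those tissues were present at low levels. The 10 skeletal muscle markers summed to 71.0, 8.91 and 9.85 TPM in KO libraries, against 24.4, 6.86 and 17.9 TPM in WT libraries, and the 6 fat markers to 11.3 to 20.9 TPM in KO libraries and 15.2 to 23.1 TPM in WT libraries. The muscle markers were highest in KO library 4 and Cox7a1 in WT library 1, and a link between them was not tested. The 4 spermatid markers, set beside the testis isoforms, summed to at most 0.16 TPM in KO libraries and 0.76 TPM in WT libraries, with Acrv1 and Tnp1 at 0 in all.

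In complex V, ATP synthase, 13 of 16 tested genes had a negative log2 fold change, and the median of -0.12 was the nearest to 0 among the complexes. The 5 subunits of F1, the catalytic part, had a median of -0.04, the 4 of the peripheral stalk -0.15 and the 4 small membrane subunits -0.19. Median gene lengths ran in the same order, at 1144, 636 and 442 bases. The small membrane subunits include Atp5l, which shares its reads with a copy. Atp5b averaged 1127 ± 0.637 CPM in KO (SD, n = 2) and 1115 ± 70.6 CPM in WT (SD, n = 3). Atp5d, the delta subunit of F1, was at 338, 429 and 429 TPM in KO libraries, against 311, 426 and 348 TPM in WT libraries, a log2 fold change of 0.08 with a standard error of 0.17. As for Uqcrc1 and Cyc1, KO libraries 5 and 6 and WT library 2 were high. The same libraries were high over the eighth of all tested genes with the most GC. In log2 CPM its median deviation from the WT mean was 0.25 in summed KO libraries 5 and 6 and 0.20 in WT library 2. It was -0.02 in KO library 4, -0.17 in WT library 1 and -0.06 in WT library 3. This eighth holds 9 tested members, and Uqcrc1, at 55.1% GC, lies outside it. Of those members, Atp5d, Cyc1, Ndufs7 and Ndufa4l2 were not lowest in summed KO libraries 5 and 6. The others, Cox6a1 and Cox8a among them, were lowest there. A link between GC content and the levels of these genes was not tested. The subunit c genes Atp5g1 and Atp5g3 stood at -0.01 and -0.08. Atp5h, subunit d of the stalk, was at 835, 755 and 765 TPM in KO libraries, against 1047, 840 and 882 TPM in WT libraries, a log2 fold change of -0.20. Atp5mpl, a small membrane subunit, was at 783, 673 and 671 TPM in KO libraries, against 984, 778 and 838 TPM in WT libraries. The groups overlapped in TPM, with WT library 1 above all others, at a log2 fold change of -0.24. Atp5s, a coupling factor, stood at -0.24 with values of 30.4, 29.4 and 29.15 TPM in KO libraries, against 37.2, 34.65 and 34.1 TPM in WT libraries, and did not overlap. In CPM both KO samples lay below all WT samples for 2 of the 16 genes of the complex, or 12.5%, against 15.5% of all tested genes. The difference between F1 and the peripheral stalk was not tested.

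The lean to lower values was uneven across the libraries, with KO libraries 5 and 6 lowest and WT library 1 highest. Against the mean of the 3 WT libraries, the median deviation of the 81 genes in log2 CPM was -0.06, -0.26 and -0.26 in KO libraries 4, 5 and 6, and 0.10, -0.03 and -0.07 in WT libraries 1, 2 and 3. KO library 4 lay within the range of the WT libraries. The summed KO libraries 5 and 6 gave the lowest of the 5 samples for 62 of 81 members, or 76.5%, against 25.4% of all tested genes. WT library 1 gave the highest for 52, or 64.2%, against 25.2%. Without KO library 4 the median log2 fold change of the members was -0.26, without KO libraries 5 and 6 it was -0.07, and without WT library 1 it was -0.08. Over all tested genes the median deviation was between -0.01 and 0.01 in log2 CPM, rounded to 2 decimals, in the 6 libraries. The eighth of all tested genes with the shortest length, which holds 60 of the members, had the same extremes. Its median deviation was -0.02, -0.18 and -0.17 in KO libraries 4, 5 and 6. It was 0.07, -0.04 and -0.03 in WT libraries 1, 2 and 3. Markers of cell types moved with the libraries as well. KO libraries 5 and 6 had the highest summed neuron and Schwann cell markers of the 6 libraries, and KO library 4 had the highest erythroid markers, 59740 TPM against 12750 to 24480 TPM in WT libraries. Of the 13 neuron, 12 Schwann cell and 6 erythroid markers, 0 passed (edgeR quasi-likelihood test), with 1, 3 and 1 at an unadjusted p under 0.05, and DESeq2 called 1 of them, the neuron marker Syt1, lower in KO. Of the tested markers of 7 other cell types 0 passed by edgeR, with 0 to 3 per type at an unadjusted p under 0.05. DESeq2 called the fibroblast markers Col1a1 and Col3a1 and the satellite glia marker Kcnj10 higher in KO, and of the mural cell markers Rgs5 and Cspg4 it called 1 higher and 1 lower. Satellite glia markers summed to 1138 to 1174 TPM in KO libraries and 896.7 to 1078 TPM in WT libraries, with all 6 positive in log2 fold change. Endothelial markers summed to 84.57 to 91.42 TPM in KO libraries and 62.3 to 71.64 TPM in WT libraries, with all 7 positive. Mural cell markers summed to 131.6 to 133.3 TPM in KO libraries and 155.7 to 208.7 TPM in WT libraries, with 6 of 10 positive. The sums of these last 3 lists did not overlap between KO and WT, nor did those of the Schwann cell markers. Of the 12 Schwann cell markers 11 were positive in log2 fold change. Among all tested genes, taken singly, both KO samples lay above all WT samples in CPM for 11.8% and below for 15.5%. The part of these lists in the result was not tested.

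**Figure D4:**
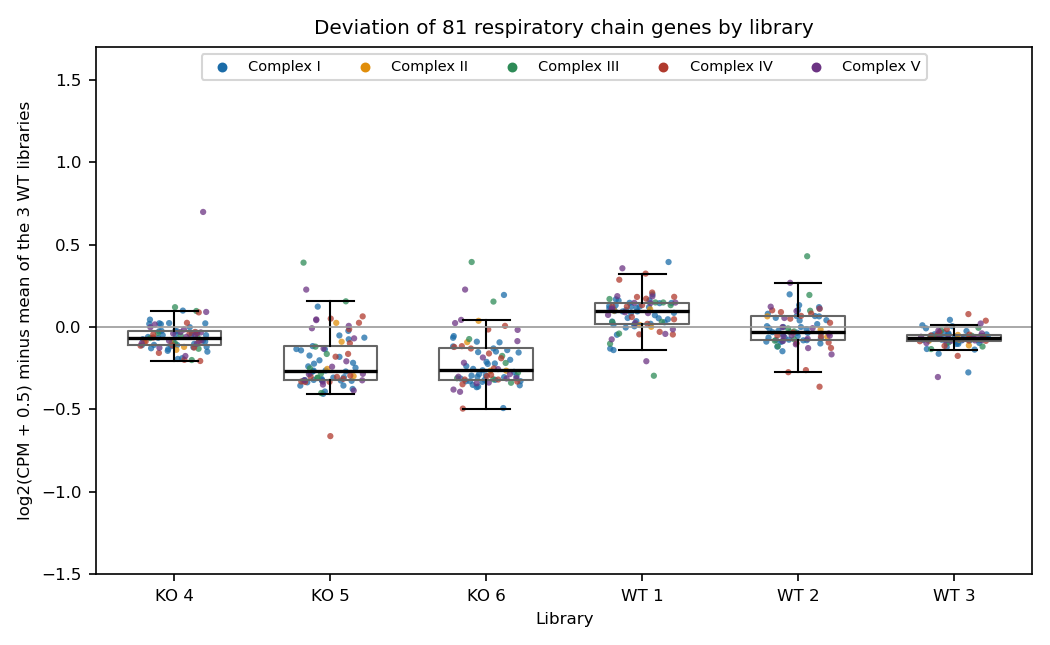
Deviation of each of the 81 tested genes from the mean of the WT libraries in log2(CPM + 0.5), by library, KO 4 to 6 and then WT 1 to 3, with points coloured by complex, boxes for the quartiles and whiskers to the last point within 1.5 box lengths. KO libraries 5 and 6 have medians of -0.26, and KO library 4, at -0.06, lies among the WT libraries.

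Gene length moved with the result. The members are short, with a median length of 679 bases among those tested, from 352 to 2756, against 2471 bases over all tested genes. Over all tested genes the median log2 fold change was -0.12 in the shortest eighth, 82 to 1024 bases long, and 0.11 in the longest. Of the 81 tested members, 60 lay in the shortest eighth, which holds 2102 genes. In it, 56 of the 60 members had a negative log2 fold change, or 93.3%, against 66.6% of all its genes, with a median of -0.15. Both KO samples lay below all WT samples for 12 of these 60 members, against 21.2% of all genes of the eighth. With log2 CPM of each library corrected for gene length by a loess curve, the median of the 81 members was -0.03 and 50 were negative, as were 8402 of the 16810 tested genes. By complex the corrected medians were -0.04 in complex I, -0.01 in complex III, -0.00 in complex IV and -0.01 in complex V. In complex II the corrected median was -0.12, near its uncorrected value of -0.15, and 3 of its 4 genes were negative. Over all tested genes the median log2 fold change also rose with GC content, from -0.10 in the lowest eighth to 0.13 in the highest. A correction for GC content in place of length gave the members a median of -0.16. Across the members, log2 fold change and log2 length had a Pearson r of 0.225 and a Spearman rho of 0.224 over 81 genes of the same libraries, which are not independent replicates.

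**Figure D5:**
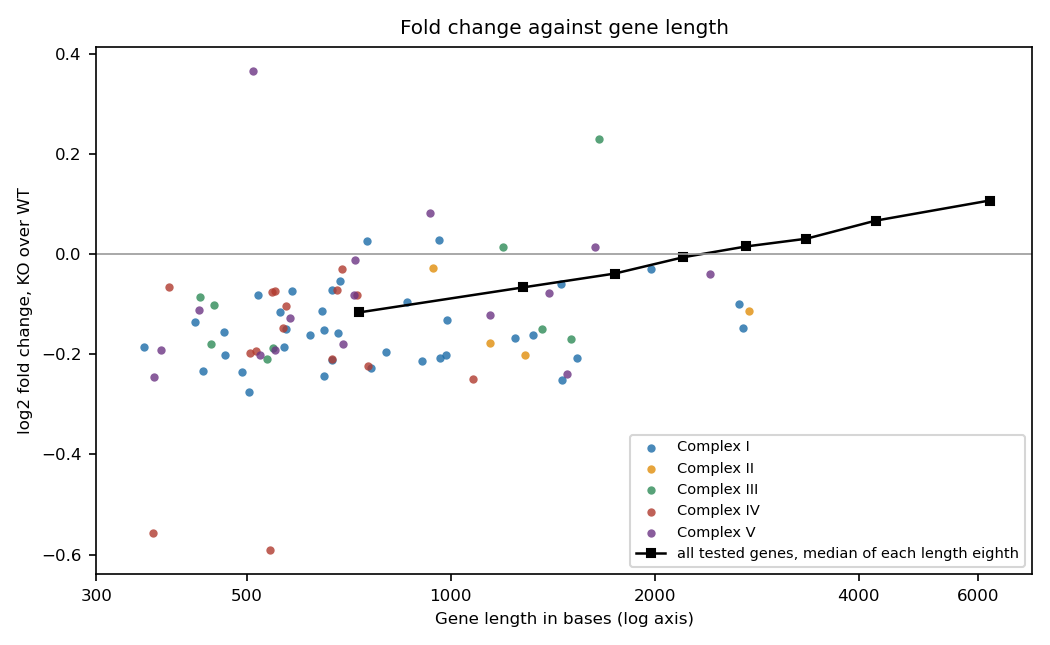
Log2 fold change, KO over WT, against gene length on a log axis for the 81 tested respiratory chain genes, coloured by complex, with black squares for the median of all tested genes in each eighth of length. The black line climbs from -0.12 in the shortest eighth to 0.11 in the longest, and most members lie at its short end.

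Genes that build or feed the respiratory chain were described from lists of related genes. None of these genes passed, by edgeR or by DESeq2, and the lists held 0 to 3 genes each at an unadjusted p under 0.05 by edgeR, where 9.16% of all tested genes lay. Of 46 tested assembly factors, 32 had a negative log2 fold change, with a median of -0.09, and 1 had an unadjusted p under 0.05. That was Ndufaf7, a methyltransferase for complex I, at 31.4, 30.7 and 29.8 TPM in KO libraries, against 38.8, 38.2 and 35.8 TPM in WT libraries, with no overlap. It stood at -0.28 on the log2 scale (standard error 0.11, adjusted p = 0.530 by edgeR), and Cox16, an assembly factor of complex IV, at -0.32. Of 18 genes of the outer membrane and of import, 16 were negative, with a median of -0.12, among them Timm23, the import channel, at -0.38 and Timm17a at -0.20. Of 13 citric acid cycle genes 9 were negative, with a median of -0.03. Ogdh, a subunit of the oxoglutarate dehydrogenase complex, stood at 0.49 with a standard error of 0.30, and Suclg2 of succinyl-CoA ligase at -0.30. Of 17 glycolysis genes 12 were negative, with a median of -0.07, including Hk2, an inducible hexokinase, at -0.50 and Ldha, a lactate dehydrogenase, at -0.17. Of 12 genes for cytochrome c, ubiquinone synthesis and the complex I subunit Ndufab1, whose symbol falls outside the rule, 6 were negative, with a median of 0.00. These lists thus had medians between -0.12 and 0.00. Both KO samples lay below all WT samples for 39.1% of assembly factors, 29.4% of glycolysis genes and 27.8% of outer membrane and import genes. The share was 23.1% in the citric acid cycle list and 8.33% in the list with cytochrome c. It was 27.2% of the members and 15.5% of all tested genes. Pdss2 and Coq3, of ubiquinone synthesis, stood at 0.23 and -0.19.

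The regulators of mitochondrial biogenesis leaned the other way, with 11 of 15 positive and a median of 0.09, where 8431 of the 16810 tested genes were positive. At an unadjusted p under 0.05 by edgeR 1 of the 15 was higher, against 5.16% of all tested genes. Both KO samples lay above all WT samples for 2 of the 15, against 11.8%. Median gene length was 2564 bases in this list and 679 bases among the members, and a link to length was not tested. Ppargc1b, a coactivator of the PGC-1 family, was at 2.22, 2.81 and 3.55 TPM in KO libraries, against 1.53, 1.95 and 1.74 TPM in WT libraries. All KO values were higher, by 0.70 on the log2 scale (standard error 0.20, unadjusted p = 0.0119 and adjusted p = 0.388 by edgeR). Pprc1, of the same family, stood at 0.41. Of 9 tested hypoxia targets 7 were negative, with a median of -0.23. At an unadjusted p under 0.05 by edgeR 2 of the 9 were lower and 1 higher, against 4.00% and 5.16% of all tested genes. Both KO samples lay below all WT samples for 6 of the 9, against 15.5% of all tested genes. Both lay above for 1, against 11.8%. Slc2a1, a glucose transporter, was positive at 0.40, and Hk2 and Ldha belong to this list too. None of the 13 genes encoded by mitochondrial DNA was among the matched identifiers, so the subunits made inside the mitochondrion are not analysed here.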

How the data were processed

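RNA of L3-L4 ganglia from 3 KO and 3 WT mice was sequenced with a stranded mRNA kit, from RNA with an integrity number above 8.0, per the labels. The labels give Schwann cells as the cell type, and the libraries were treated here as whole ganglia. The submitters' processing notes name Trimmomatic 0.38, STAR 2.6.0a, RSEM 1.3.0 and the build GRCm38. Which annotation release and strand setting were used, the sources used here do not say. The deposited file is 1 table by the authors that holds expected counts (estimated counts per gene, not normalized), TPM and gene length for each library, per the file headers. Gene symbols, coordinates and GC content were taken from GENCODE vM21, in which 35243 of 36793 identifiers matched and 1550 did not. No matched gene lay on the mitochondrial genome.

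Each pair of libraries was compared by a chi-square of their counts, using the genes that had whole counts in every library and averaged at least 20. KO libraries 5 and 6 were summed after this check. Expected counts were rounded, filtered with filterByExpr, scaled by TMM and tested over all 16810 genes with edgeR 4.0.16 in R 4.3.3 (quasi-likelihood test, two-sided, genotype as the only term, Benjamini-Hochberg adjustment at 0.05). Standard errors were derived as the size of the log2 fold change over the root of its F statistic. The fit was tested on simulated counts. Deposited TPM served for levels and isoform shares. Total counts of at least 28526704 per library left only the scarce isoforms limited by depth. Alternatives used DESeq2 1.42.0, limma 3.58.1 on log2(TPM + 1) and log2(TPM + 0.1), no filter, 6 separate libraries, GC or length correction, each sample left out (a lone KO sample is then assumed to vary like the WT samples), and the counts of near-identical copies added, which was chosen after seeing the data. Copies are genes of the table that share at least 0.9 of their 50-base words with a member. Nothing says how the mice were chosen, so p-values measure only the spread between these samples.

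The members and lists were chosen with earlier results of these data known. Named members are, in each complex, the 3 with the highest TPM and the 2 with the highest and 2 with the lowest log2 fold change, all members of the isoform families and of complex II, and in each related list the 2 genes with the smallest p. Copies were named after their values were seen.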

Additional observations from a re-analysis of the deposited data

How the results depend on the processing

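0 respiratory chain genes passed under any alternative run, including an adjusted p under 0.10. Over all genes 16 passed, against 81 without the filter, 255 by DESeq2, 144 with 6 separate libraries, 27 after GC correction, 30 at 0.10, and 7 to 14 with 1 sample left out. Members lower in KO at an unadjusted p under 0.05 were 16 with 6 separate libraries, 3 on log2(TPM + 1), 2 on log2(TPM + 0.1), 1 after GC correction and 0 with any sample left out. Those higher in KO were 0 to 1 with 1 sample left out, the 1 without WT library 2.

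The median log2 fold change of the members was -0.15. It was negative under every alternative run, and after length correction it was -0.029, with -0.036 in complex I, -0.12 in II, -0.0077 in III, -0.0017 in IV and -0.014 in V. With 1 sample left out it was -0.26 to -0.068 over all members, -0.26 to -0.064 in complex I, -0.18 to -0.097 in II, -0.23 to -0.068 in III, -0.27 to -0.089 in IV and -0.26 to -0.052 in V.

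Of the log2 fold changes of single named genes under alternatives, 675 kept their sign and 51 did not. After length correction those were Atp5g1 0.12, Atp5g3 0.049, Cox4i1 0.059, Cox4i2 0.070, Cox5a 0.10, Cox6a1 0.046, Cox6b2 0.094, Cox7c 0.14, Cox8a 0.078, Ndufa3 0.0067, Ndufb8 0.079, Sdhc 0.076 and Uqcrq 0.078. After GC correction they were Atp5d -0.038, Atp5g1 0.011, Cox5a 0.032, Cox7c 0.010, Cyc1 -0.12, Ndufa4l2 -0.13 and Ndufs7 -0.078. With copies added Atp5l was -0.18. On log2(TPM + 1) they were Atp5b -0.00096 and Ndufa4l2 -0.017, and on log2(TPM + 0.1) Atp5b -0.00096 and Ndufa4l2 -0.041. They were Atp5g1 0.0044 without a filter and Ndufs7 -0.00072 with 6 separate libraries. With 1 sample left out, the ranges were Atp5b -0.0021 to 0.068, Atp5d -0.064 to 0.23, Atp5g1 -0.050 to 0.019, Atp5l -0.29 to 0.88, Cox4i1 -0.17 to 0.023, Cox4i2 -0.28 to 0.17, Cox5a -0.057 to 0.025, Cox6b2 -0.27 to 0.20, Cox7c -0.19 to 0.053, Cyc1 -0.14 to 0.15, Ndufa4l2 -0.40 to 0.29, Ndufs7 -0.042 to 0.14, Sdhc -0.092 to 0.033 and Uqcrq -0.29 to 0.098. The causes were not tested.

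A paired fit could not be made. No paired analysis was possible because KO mice carry the numbers 4 to 6 and WT mice 1 to 3, so no number is shared. Limits are the 2 KO samples, the reads that small subunits share with pseudogenes, and isoforms with under 100 counts per library.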
